A study of Mus musculus with 6 samples.

Results

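Actins are the proteins of thin filaments, and mice carry 6 isoform genes for them: Actb and Actg1 (cytoplasmic beta and gamma actin), Acta2 and Actg2 (smooth muscle alpha and gamma actin), Acta1 (skeletal muscle alpha actin) and Actc1 (cardiac alpha actin). These 6 genes, of 54532 in the count table, are described here. They were selected by name. The set was chosen by what Acta1 showed in these libraries, namely counts in the NCAM-enriched libraries and none in bulk skin, so the Acta1 levels are given as a description with no test.

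Merkel cells sense touch in the epidermis and carry the adhesion protein NCAM on their surface, which served here to enrich them. Cells were dissociated from the dorsal epidermis of male and female C57BL/6 mice, 4 weeks of age, with no treatment or engineered allele named for either group. The NCAM-enriched group (3 libraries) held NCAM-positive, DAPI-negative cells, first bound to magnetic beads and then sorted, and the bulk skin group (3 libraries) held DAPI-negative cells sorted without NCAM selection. Smart-seq2, which copies whole transcripts from small inputs of RNA, was run on 500 sorted events for each library. Nothing states that the libraries of a group came from separate animals, so the p-values measure only the spread between these libraries.

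Beta and gamma actin build the cytoskeleton of nearly all cells, and their proteins differ at only a few residues near the amino terminus. The muscle isoforms serve contraction: Acta1 in skeletal muscle fibres, Actc1 in heart and developing muscle, Acta2 in vascular smooth muscle, pericytes, myoepithelium and myofibroblasts, and Actg2 in visceral smooth muscle. Many actin genes are driven by serum response factor (SRF), which binds a sequence called the CArG box and is coactivated by proteins of the Mkl family that sense free actin monomers. The actin family has also left many processed pseudogenes, which are intron-less copies of its mRNAs in the genome.

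All 6 genes are annotated as protein coding on the minus strand of GRCm38. Actb (ENSMUSG00000029580) is at chr5:142903115-142906754, Actg1 (ENSMUSG00000062825) at chr11:120345690-120348542 and Acta1 (ENSMUSG00000031972) at chr8:123891769-123894751. Actc1 (ENSMUSG00000068614) is at chr2:114047282-114053548, Acta2 (ENSMUSG00000035783) at chr19:34241090-34255590 and Actg2 (ENSMUSG00000059430) at chr6:83512905-83536265. Their coding sequences are 1125 to 1131 bases long. Identity was highest between Actb and Actg1 (88.6%) and between Acta1 and Actc1 (86.3%), and lowest between Actg1 and Acta2 (81.5%). Actb and Acta1 were 84.8% identical. The last 60 coding bases before the stop codon, all in the final coding exon, are shown because they show how few bases tell the isoforms apart. Letters in capitals differ from Acta1, at 6 bases in Actb, 7 in Actg1, 8 in Actc1, 7 in Acta2 and 10 in Actg2.
Acta1, chr8:123892012-123892071: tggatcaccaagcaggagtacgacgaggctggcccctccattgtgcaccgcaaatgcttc
Actc1, chr2:114047469-114047528: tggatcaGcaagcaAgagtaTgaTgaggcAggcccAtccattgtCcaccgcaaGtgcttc
Acta2, chr19:34241670-34241729: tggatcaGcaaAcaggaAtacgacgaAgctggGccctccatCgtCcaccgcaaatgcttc
Actg2, chr6:83512988-83513047: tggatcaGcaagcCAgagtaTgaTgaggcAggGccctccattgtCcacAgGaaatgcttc
Actb, chr5:142903801-142903860: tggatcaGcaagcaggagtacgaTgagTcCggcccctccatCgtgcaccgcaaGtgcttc
Actg1, chr11:120346393-120346452: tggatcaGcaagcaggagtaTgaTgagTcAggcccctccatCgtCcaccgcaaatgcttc

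The reads were 50 bases long, so windows of that length were compared between genes. Of the 1397 windows of 50 bases in the Acta1 transcript, 31 (2.22%) occurred unchanged in another gene, and 9.66% lay within 2 mismatches of another isoform. For Actb, the most abundant isoform here, 266 of 1871 windows (14.2%) occurred in another gene, 28 of them in Acta1 and 30 in Actg1. Actg1 was the least distinct, with 1079 of 1903 windows (56.7%) also found elsewhere, chiefly in the pseudogenes Gm12715 (973 windows), Gm8399 (677) and Actg-ps1 (424). Acta2 shared 7 of 1986 windows (0.352%), and Actc1 and Actg2 shared none of 1424 and 1284. How the counting treated reads that match several places is not given in the sources used here, so the Actg1 counts in particular are uncertain. In addition, 5.53% of the exonic bases of Actg1 overlap other annotated genes, and the method does not mark the strand.

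**Figure D1:**
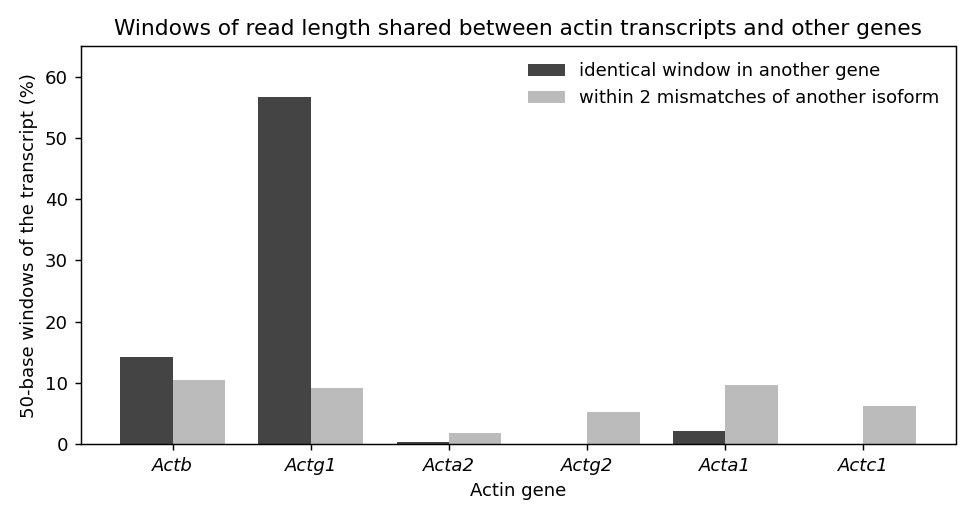
Share of the 50-base windows of each actin transcript (percent, y axis) that occur unchanged in another gene (dark bars) or lie within 2 mismatches of another actin isoform (light bars). Actg1 stands highest at 56.7% and Actb next at 14.2%, while Acta1 is at 2.22% and Actc1 and Actg2 are at 0.

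Libraries held 1343190 to 4481830 counts, so that 1 count was worth 0.216 to 0.773 normalised CPM (counts scaled by TMM-adjusted depth). The label was checked on a list of Merkel cell genes, which came to 1529, 1602 and 451 CPM across NCAM-enriched libraries 1 to 3 but 132 to 176 CPM in bulk skin, with 5 of 9 called higher (edgeR adjusted p of at most 0.05). Epidermal T cell and Langerhans cell genes summed to 26.3 to 345 CPM in the NCAM-enriched libraries. In bulk skin they summed to 12855 to 19547 CPM, with 10 of 10 called lower. The 9 keratinocyte genes summed to 33615, 17888 and 39703 CPM across NCAM-enriched libraries 1 to 3, far above the Merkel cell sums. In bulk skin these genes summed to 11362 to 15957 CPM, and 3 were called higher and 0 lower. For comparison, edgeR called 1.04% of the 13157 genes tested higher and 1.55% lower in the NCAM-enriched libraries. The keratinocyte list and the T and Langerhans cell list each held 1 tested gene with 0 counts in a group. That gene entered the test only through the other group, so its call says nothing of the label. NCAM-enriched libraries 1 and 2 stood apart in another measure. Processed pseudogenes of all families took 2.13% and 3.16% of their counts, against 0.197% in NCAM-enriched library 3 and 0.160 to 0.223% in bulk skin. Results of the isoforms are therefore also given for NCAM-enriched library 3 alone. In bulk libraries, fewer cells of a type and less RNA per cell cannot be told apart.

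Acta1, the alpha actin of the skeletal muscle sarcomere, had 497, 207 and 22 counts across NCAM-enriched libraries 1 to 3 against 0 in each bulk skin library. On the normalised scale these were 264, 160 and 6.24 CPM, a mean of 143 ± 130 (SD, n = 3). The groups did not overlap, and the NCAM-enriched libraries themselves spanned a wide range, with library 3 far below the others. The 726 counts against 0 made Acta1 at least 415-fold higher, taking a floor of 3 counts over the bulk skin group. The bound was 182-fold without NCAM-enriched library 1, 849-fold without library 3, 248-fold without bulk skin library 2, and 23.9-fold with NCAM-enriched library 3 alone. These values restate the choice of the gene and carry no test.

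Actc1, the alpha actin of cardiac and embryonic striated muscle, followed the same order. Its transcript shares no 50-base window with another gene, and 6.25% of its windows lie within 2 mismatches of another isoform. Actc1 had 127, 53 and 12 counts across NCAM-enriched libraries 1 to 3 against 0 in each bulk skin library, or 67.5, 40.9 and 3.41 CPM (37.3 ± 32.2). The groups did not overlap, and library 3 was again lowest. The fold was at least 110 (192 counts against 0), 51.7 without NCAM-enriched library 1, 217 without library 3, 65.6 without bulk skin library 2 and 13.0 with library 3 alone. Actc1 entered the test only through its NCAM-enriched counts and was not called (edgeR adjusted p = 0.0515). It was called in 5 of 12 alternatives, with adjusted p from 1.72e-06 to 0.244: by DESeq2, by limma-voom, with all genes of at least 1 count, and without NCAM-enriched library 2 (adjusted p = 0.0325) or 3 (0.0199). Since the filter let Actc1 through by the group in which it was high, these p-values lend it no support.

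Beta actin was the main isoform in every library. Actb had 3609, 2466 and 3417 CPM across NCAM-enriched libraries 1 to 3 against 4642, 5270 and 3856 CPM in bulk skin libraries 1 to 3. The means were 3164 ± 612 and 4589 ± 708, and every NCAM-enriched library lay below every bulk skin library. The log2 fold change was -0.54 ± 0.46 (SE), and Actb was not called (adjusted p = 0.595, from 0.270 to 0.813 over the 12 alternatives). With NCAM-enriched library 3 alone the log2 fold change was -0.43 (adjusted p = 0.584).

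Gamma actin, the other cytoplasmic isoform, was listed at very low counts. Actg1 had 3, 9 and 33 counts across NCAM-enriched libraries 1 to 3 against 10, 23 and 23 in bulk skin, or 1.59, 6.95 and 9.36 CPM against 3.10, 4.97 and 6.31 CPM. The groups overlapped, and the log2 fold change was 0.32 ± 1.11 (adjusted p = 0.918). It turned to -0.27 without NCAM-enriched library 3 and was 0.96 with that library alone (adjusted p = 0.651).

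Smooth muscle alpha actin varied widely between the NCAM-enriched libraries. Acta2 had 719, 37.1 and 9.65 CPM across NCAM-enriched libraries 1 to 3 against 1252, 1020 and 850 CPM in bulk skin. The means were 255 ± 402 and 1041 ± 202, and the groups did not overlap, library 1 lying close to the lowest bulk skin library. The log2 fold change was -2.03 ± 1.23, and Acta2 was not called (adjusted p = 0.432, from 0.000440 to 0.639 over the alternatives). It was called lower in 3 of 12 alternatives, namely limma-voom (adjusted p = 0.0183), all genes with at least 1 count (0.000440), and without NCAM-enriched library 1, where the log2 fold change was -5.54 (0.0196). With NCAM-enriched library 3 alone it was -6.75 (adjusted p = 1.11e-06), a fit that assumes the lone library to vary like the bulk skin libraries.

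Actg2, the smooth muscle gamma actin, had 112, 27.0 and 1.42 CPM across NCAM-enriched libraries 1 to 3 against 48.7, 49.5 and 31.5 CPM in bulk skin. The groups overlapped, with library 1 above all bulk skin libraries and libraries 2 and 3 below them. The means were 46.7 ± 57.7 and 43.3 ± 10.2, and the log2 fold change was 0.11 ± 1.09 (adjusted p = 0.973), with the same sign in 7 of 12 alternatives. It was -1.68 without NCAM-enriched library 1 and -4.90 with library 3 alone (adjusted p = 0.000395).

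**Figure D2:**
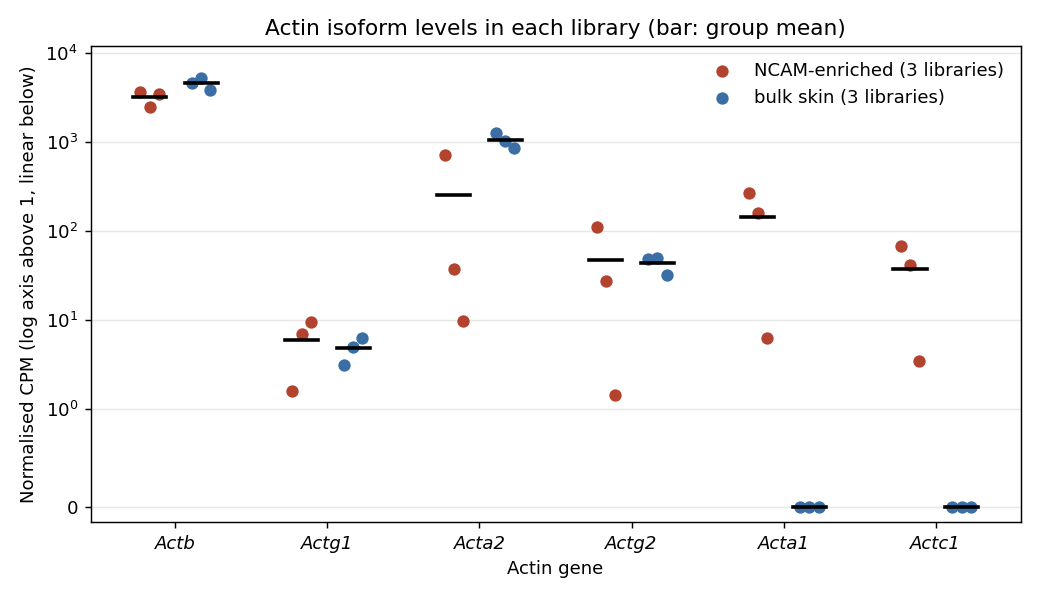
Normalised CPM (y axis, logarithmic above 1 and linear below) of the 6 actin genes in the 3 NCAM-enriched (red) and 3 bulk skin (blue) libraries, each point a library from 1 to 3, left to right, and each bar the group mean. Acta1 and Actc1 lie at 0 in bulk skin, and NCAM-enriched library 3 is lowest of its group for Acta1, Actc1, Acta2 and Actg2.

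Of the 5 isoforms other than Acta1, edgeR called 0, DESeq2 1 and limma-voom 2, and 1 had an unadjusted p under 0.05 in edgeR (Actc1). Over the 13157 genes tested, 18.9% had an unadjusted p under 0.05 in edgeR, DESeq2 called 12.1% and limma-voom 9.12%. By its adjusted p, edgeR called 1.04% higher and 1.55% lower in the NCAM-enriched libraries. Groups did not overlap for 2 isoforms on the higher side (Acta1, by choice, and Actc1) and 2 on the lower side (Actb and Acta2). Such separation was common, at 11.1% of all genes tested on the higher side and 19.3% on the lower side.

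Compared per exonic kilobase, which puts genes of different length on a common scale, the isoforms in bulk skin fell in the order Actb (1713 ± 264 CPM per kilobase), Acta2 (474 ± 91.9), Actg2 (27.8 ± 6.53) and Actg1 (1.80 ± 0.605), with Acta1 and Actc1 at 0. No neighbours with counts overlapped in this order. In the NCAM-enriched group Actb was again highest (1181 ± 228 CPM per kilobase). It was followed by Acta2 (116 ± 183), Acta1 (93.4 ± 84.4), Actg2 (30.0 ± 37.0), Actc1 (23.0 ± 19.9) and Actg1 (2.25 ± 1.50), whose order below Actb was within the spread between libraries.

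The isoform shares differed most within the NCAM-enriched group. In NCAM-enriched library 1, with 8983 actin counts, Actb took 75.6%, Acta2 15.1%, Acta1 5.53% (95% exact interval 5.07 to 6.03%), Actg2 2.34%, Actc1 1.41% and Actg1 0.0334%. In library 2, with 3544 actin counts, Actb took 90.1%, Acta1 5.84% (5.09 to 6.66%), Actc1 1.50%, Acta2 1.35%, Actg2 0.988% and Actg1 0.254%. Acta1 thus took a like share in libraries 1 and 2, while Acta2 did not. In library 3, with 12149 actin counts, Actb took 99.1%, Acta2 0.280%, Actg1 0.272%, Acta1 0.181% (0.114 to 0.274%), Actc1 0.0988% and Actg2 0.0412%.

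The bulk skin libraries resembled one another. Bulk skin library 1, with 19151 actin counts, gave 78.1% to Actb, 21.1% to Acta2, 0.820% to Actg2 and 0.0522% to Actg1. In bulk skin library 2, with 29348 actin counts, the same isoforms took 83.1%, 16.1%, 0.780% and 0.0784%. In bulk skin library 3, with 17304 actin counts, they took 81.3%, 17.9%, 0.665% and 0.133%. Acta1 and Actc1 had 0 counts in each, which allows a share of up to 0.0157%, 0.0102% and 0.0173% in bulk skin libraries 1 to 3 (3 counts). The intervals cover counting error only, since reads are PCR copies without molecular identifiers.

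Actins together took 0.450%, 0.264% and 0.320% of all counts across NCAM-enriched libraries 1 to 3 against 0.574%, 0.655% and 0.499% in bulk skin. Beyond single genes, 3 measures that leave out Acta1 were compared with exact two-sided permutation tests, for which p = 0.1 is the smallest that 3 libraries against 3 allow. The summed cytoplasmic actins (Actb and Actg1) had 3170 ± 611 against 4594 ± 708 CPM, with no overlap (permutation p = 0.1, adjusted p = 0.3 over the 3 measures). The smooth muscle isoforms (Acta2 and Actg2) took 18.4%, 2.49% and 0.322% of the actin counts other than Acta1 in the NCAM-enriched libraries, against 21.9%, 16.9% and 18.6% in bulk skin (permutation p = 0.2, adjusted p = 0.3). The gamma share of the cytoplasmic counts was 0.200 ± 0.135% against 0.108 ± 0.0497% (permutation p = 0.4, adjusted p = 0.4). Its difference of 0.091 percentage points was 0.169, 0.051 and 0.055 without NCAM-enriched library 1, 2 and 3. This gamma share rests on 3 to 33 Actg1 counts in a library, and 56.7% of the Actg1 windows also occur in another gene. None of the 3 measures passed the threshold, which the design could not have allowed.

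**Figure D3:**
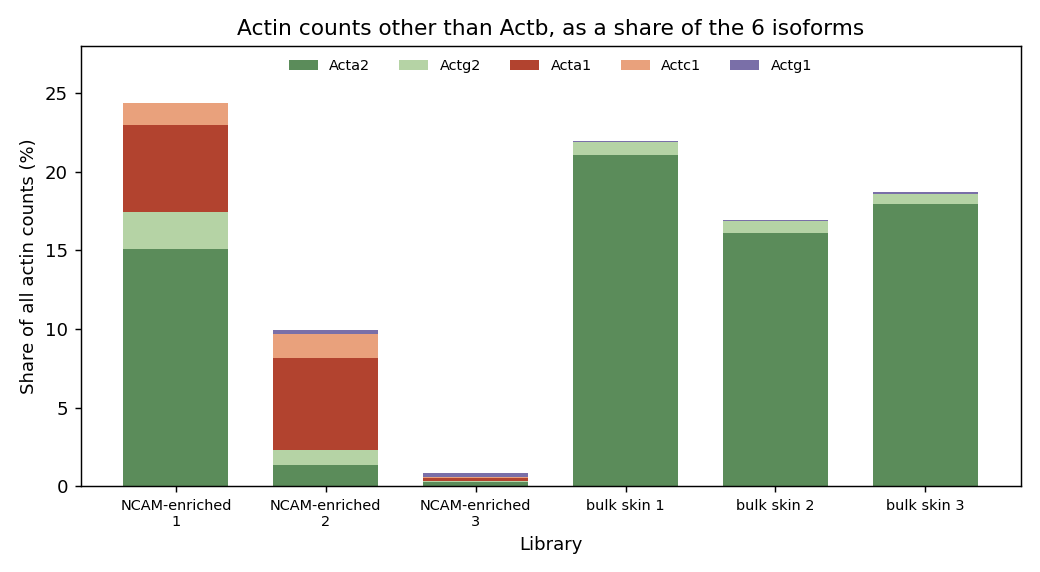
Share of all actin counts (percent, y axis) taken by the 5 isoforms other than Actb in each of the 6 libraries, stacked. Acta1 and Actc1 appear only in the NCAM-enriched bars (5.53% and 5.84% Acta1 in libraries 1 and 2, 0.181% in library 3), and Acta2 fills most of each bulk skin bar.

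Some rows of other actin copies moved with Acta1. Actbl2, a beta actin-like gene, had 59, 34 and 1 counts across NCAM-enriched libraries 1 to 3 against 0 in bulk skin. The pseudogene Actg-ps1 had 69, 31 and 2 counts against 4, 3 and 0, and the actin-like row Gm17087, which shares 15 windows with Actb, had 58, 22 and 4 against 1, 0 and 0. In all, 22 genes outside the family shared a window of 50 bases with an isoform, 14 of them pseudogenes, and those pseudogenes held 193 counts in the NCAM-enriched libraries and 32 in bulk skin. Only 3 of the 14 had at least 20 counts, and all 3 had more in the NCAM-enriched libraries. The pseudogene that shares most windows with Acta1, Gm47692 (31 windows), had 0, 1 and 0 counts against 1, 2 and 0. Lrrc58, which shares 179 windows with Actb, did not move with Acta1, with 159, 126 and 248 counts against 186, 259 and 239.

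Relative to Acta1, several of these rows had similar ratios in NCAM-enriched libraries 1 and 2, and others did not. Per 100 Acta1 counts there were 25.6 and 25.6 Actc1 counts, 11.9 and 16.4 Actbl2 counts, 13.9 and 15.0 Actg-ps1 counts and 11.7 and 10.6 Gm17087 counts. The pseudogene Gm12003 stood at 7.04 and 4.35, AC163694.1 at 4.43 and 3.86, and Lrrc58 at 32.0 and 60.9. In library 3, with 22 Acta1 counts, the ratios of Actc1, Actbl2, Actg-ps1 and Gm17087 were 54.5, 4.55, 9.09 and 18.2. Relative to Actb, Acta1 stood at 7.32 and 6.48 counts per 100 in libraries 1 and 2 and at 0.183 in library 3, and Actc1 at 1.87, 1.66 and 0.0996. Acta2 had no such shared ratio to Actb, with 19.9, 1.50 and 0.282 counts per 100.

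**Figure D4:**
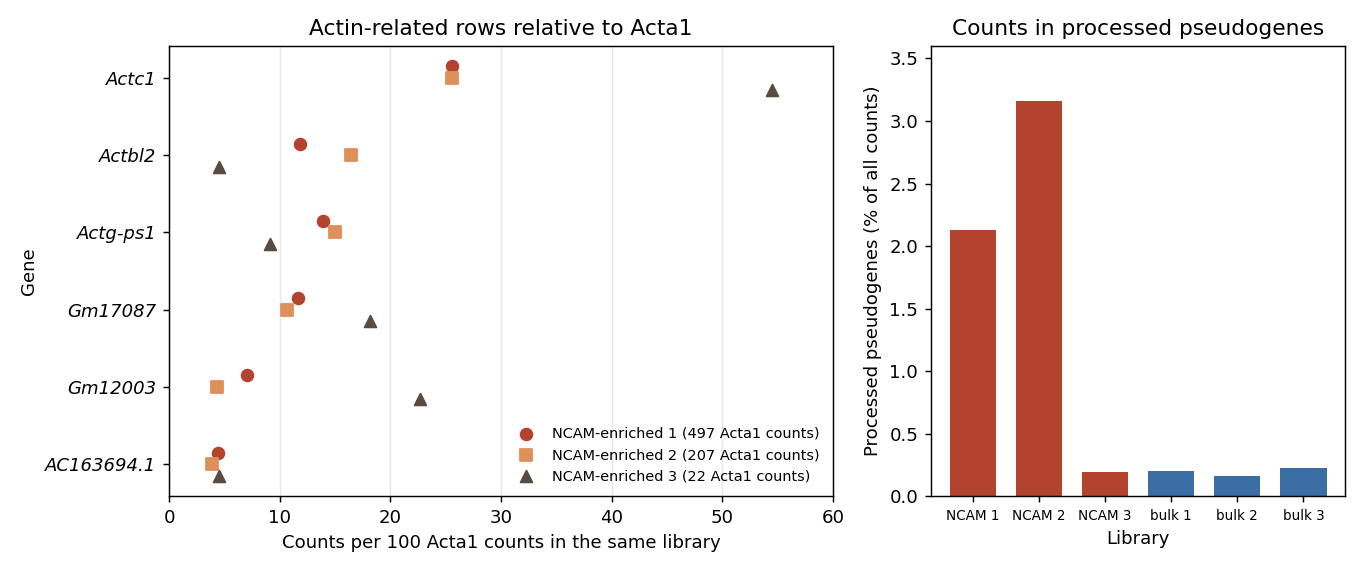
Left, counts of 6 actin-related rows per 100 Acta1 counts in the same library (x axis) for the 3 NCAM-enriched libraries. Right, percent of all counts (y axis) in processed pseudogenes in each library, 2.13% and 3.16% in NCAM-enriched libraries 1 and 2 and 0.160 to 0.223% in the other 4.

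The same libraries that held most of the Acta1 counts thus held most counts of pseudogenes in general. Of 342 genes with a count in every NCAM-enriched library and none in bulk skin, 248 (72.5%) were processed pseudogenes. The mirror set, with counts in every bulk skin library and none in the NCAM-enriched ones, held 42 of 772 (5.44%), and 4578 of all 27884 genes with a count (16.4%) were of this kind. Among the 342 genes, Acta1 was second in total counts, after the pseudogene Gm12152 (837 counts), and Actc1 was twelfth. NCAM-enriched library 3, where the pseudogene share lay within the range of bulk skin, had 22 Acta1 and 12 Actc1 counts. By definition all 342 genes, the 248 processed pseudogenes included, had a count in that library too. The part of multiply matching reads in the Acta1 and Actc1 counts was not tested.

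The genes whose levels were most like Acta1 were sought by Pearson's r of log2(CPM + 1) over the 6 libraries, among 11868 genes of at least 20 CPM in a library. Actc1, a member, had r = 0.9998. Outside the family the closest were Gm12713 (r = 0.997), Rps16-ps3 (0.996), Gm14034 (0.994), Eprs (0.993), Tmem170 (0.993) and CT025573.1 (0.993). Gm12713, Rps16-ps3, Gm14034 and CT025573.1 are annotated as processed pseudogenes and had 0 counts in bulk skin. Rps16-ps3 had 67, 29 and 5 counts in NCAM-enriched libraries 1 to 3. Eprs, a transfer RNA synthetase gene, and Tmem170 had counts in all 6 libraries. These r values rest on 6 points, of which 3 lie at 0 for Acta1. Since Acta1 was chosen for its 0 counts in bulk skin, ranking by likeness to it favours genes with 0 counts there.

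Other genes of the skeletal muscle sarcomere were sparse. Of 40 skeletal muscle fibre genes, 8 had no count in any library, 17 had none in the NCAM-enriched libraries and 17 none in bulk skin. Creatine kinase (Ckm) had 0 counts in the NCAM-enriched libraries and 3 in bulk skin, and fast troponin C (Tnnc2) and myoglobin (Mb) had 0 everywhere. The fast myosin heavy chains Myh1 and Myh4 had 3 and 2 counts, all in NCAM-enriched libraries. The summed level of the list, Acta1 left out, was 134, 144 and 58.2 CPM across NCAM-enriched libraries 1 to 3 against 78.1 to 78.3 CPM in bulk skin.

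Only 7 of the 40 passed the count filter, 0 were called higher and 1 lower, and the median log2 fold change was 0.64 against -0.07 over all genes tested. Of all those genes, edgeR called 1.04% higher and 1.55% lower. The gene called lower was Tnni2, fast troponin I, with 0 counts in each NCAM-enriched library and 63, 85 and 98 in bulk skin (adjusted p = 0.0470). It passed the count filter only through bulk skin, where it was high, so its call says nothing of the list. Titin (Ttn) had 50, 28 and 15 counts against 2, 24 and 23 (adjusted p = 0.411). The calcium release channel Ryr1 had 30, 60 and 45 counts against 0, 26 and 10 (adjusted p = 0.270), and muscle enolase (Eno3) 78, 10 and 84 against 17, 38 and 25 (adjusted p = 0.334). The fast regulatory light chain Mylpf had 31, 0 and 15 counts against 38, 48 and 21 (adjusted p = 0.915). The Z-disc alpha actinins Actn3 and Actn2 had adjusted p of 0.862 and 0.215. Pgam2, too low to test, had 5, 75 and 0 counts against 0, 5 and 0. Neb, Atp2a1, Casq1, Pygm, Ldb3 and Des had at most 5 counts in any NCAM-enriched library and at least 10 in a bulk skin library.

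Genes of slow and cardiac muscle, the usual partners of Actc1, were as sparse. Of 16, 2 were tested and 0 called by edgeR, DESeq2 or limma-voom, none at an unadjusted p under 0.05. Among all genes tested, DESeq2 called 12.1% and limma-voom 9.12%, and 18.9% had an unadjusted p under 0.05 in edgeR. Mybpc3, cardiac myosin-binding protein C, had 70, 0 and 1 counts across NCAM-enriched libraries 1 to 3 against 0 in bulk skin, and slow troponin T (Tnnt1) 33, 24 and 0 against 8, 0 and 0. The atrial light chain Myl4 had 45 counts in NCAM-enriched library 2 and 19 in bulk skin library 2, with 0 in the rest. Slow troponin I (Tnni1) had 0, 9 and 0 against 38, 79 and 27 (adjusted p = 0.502). Of 13 muscle stem cell and myoblast genes, 8 had no count anywhere, among them the myogenic regulators Myod1 and Myog and the satellite cell factor Pax7. Of the list members with counts, Pax3 had 13, 74 and 0 counts against 6, 0 and 4, and Mef2c 68, 30 and 1 against 53, 141 and 69 (adjusted p = 0.966).

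Genes of smooth muscle cells and pericytes gave the surroundings for Acta2. Of 15, 13 were tested, edgeR called 0 and DESeq2 and limma-voom 1 each, 1 had an unadjusted p under 0.05, and the median log2 fold change was -0.11. Among all genes tested, DESeq2 called 12.1% and limma-voom 9.12%, and 18.9% had an unadjusted p under 0.05 in edgeR. Smooth muscle myosin Myh11 had 353, 13 and 9 counts across NCAM-enriched libraries 1 to 3 against 333, 470 and 425 in bulk skin (adjusted p = 0.819). Myosin light chain kinase Mylk had 289, 81 and 4 against 326, 403 and 405 (adjusted p = 0.872). Like Acta2, both were highest in NCAM-enriched library 1 and lowest in library 3 within that group. Notch3, a receptor of pericytes, had another order, with 282, 60 and 666 counts against 30, 117 and 170 (adjusted p = 0.126), and Cspg4 249, 283 and 174 against 252, 440 and 335 (adjusted p = 0.614). The summed level of the list was 1084, 491 and 335 CPM against 546 to 598 CPM. The part of smooth muscle cells or pericytes in the Acta2 result was not tested.

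Among 10 myoepithelial and fibroblast genes, all tested, edgeR called 0 higher and 1 lower. The called gene was Postn, a matrix protein of fibroblasts (log2 fold change -3.31 ± 0.48, adjusted p = 0.0162). DESeq2 called 1 and limma-voom 5, and 2 had an unadjusted p under 0.05 in edgeR. Over all genes tested the shares were 12.1%, 9.12% and 18.9%. The collagen gene Col1a2 had 278, 19919 and 36 counts against 10444, 22962 and 8678, and Col1a1 and Col3a1 were also highest in NCAM-enriched library 2 within that group. Acta2 was at 37.1 CPM in that library. The part of fibroblasts or myoepithelial cells in the Acta2 result was not tested.

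Genes that handle actin monomers lay mostly below 0. Of 22 tested, 3 lay above 0 and the median log2 fold change was -0.68, with 2 called lower and 0 higher by edgeR. DESeq2 called 7 and limma-voom 5, and 7 had an unadjusted p under 0.05 in edgeR. Over all genes tested the shares were 12.1%, 9.12% and 18.9%. Both genes called by edgeR were thymosins, which bind actin monomers. Tmsb4x had a log2 fold change of -2.65 ± 0.56 (adjusted p = 0.0479) and Tmsb10 of -2.93 ± 0.39 (adjusted p = 0.0123). Tmsb10 had 60, 55 and 113 counts across NCAM-enriched libraries 1 to 3 against 1001, 877 and 1130 in bulk skin. Profilin (Pfn1), cofilin (Cfl1) and gelsolin (Gsn), which load, sever or cap filaments, had adjusted p of 0.456, 0.157 and 0.679. T cells and Langerhans cells, which also express thymosins, were depleted from the NCAM-enriched libraries as given above, and their part in this difference was not tested.

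The Arp2/3 complex and other nucleators start new filaments. Of 26 tested, edgeR called 1 higher and 1 lower, with a median log2 fold change of -0.19. DESeq2 called 8 and limma-voom 4, and 9 had an unadjusted p under 0.05 in edgeR. Over all genes tested the shares were 12.1%, 9.12% and 18.9%. Daam1, a formin, rose with a log2 fold change of 1.84 ± 0.40 (adjusted p = 0.0496). Was, the blood cell activator of Arp2/3, had 0 counts in the NCAM-enriched libraries and 96, 186 and 64 in bulk skin (adjusted p = 0.0368), and it likewise entered the test only through bulk skin. Its relative Wasf2 had a log2 fold change of 1.05 ± 0.34 and was not called (adjusted p = 0.129). The complex subunits Arpc1b, Arpc2 and Arpc5 had log2 fold changes of -1.22, -0.56 and -0.93, with adjusted p of 0.127, 0.495 and 0.336.

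Genes upstream of actin transcription were not called. Of 8 SRF and cofactor genes tested, edgeR, DESeq2 and limma-voom called 0, with 0 at an unadjusted p under 0.05. The fitted log2 fold change of the coactivator Mkl1 was -0.63 and that of Mkl2 0.30 (adjusted p = 0.557 and 0.893). For Elk4 it was -0.0074 (0.997) and for Fhl2 0.85 (0.638). Of 16 SRF target genes, edgeR called 0, DESeq2 3 and limma-voom 2, and 4 had an unadjusted p under 0.05, against the 12.1%, 9.12% and 18.9% of all genes given above. The immediate early genes Egr1, Fos, Jun and Junb had log2 fold changes of 0.78, 0.02, 1.80 and -0.12, with adjusted p of 0.408, 0.986, 0.127 and 0.938.

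Filament, folding and actin-related genes were likewise not called by edgeR. Shares over all genes tested were 12.1% called by DESeq2, 9.12% by limma-voom and 18.9% at an unadjusted p under 0.05 in edgeR. Of 20 actin filament and nonmuscle myosin genes, DESeq2 and limma-voom called 1 each, and 1 had an unadjusted p under 0.05. The crosslinkers and linkers Actn4, Sptbn1 and Plec had log2 fold changes of 0.63, 0.75 and 0.42, and the light chain Myl6 of -0.15. Of 17 folding and modification genes, DESeq2 called 1 and limma-voom 0, and 2 had an unadjusted p under 0.05. The subunits of the CCT chaperonin that folds new actin, Cct2, Cct4, Cct5 and Cct7, had log2 fold changes of 0.01, -0.98, 0.51 and 0.23. Of 7 actin-related proteins tested, all 3 tools called 0, with 0 at an unadjusted p under 0.05. Actr1a, Actr1b and Actr10, subunits of the dynactin complex, had log2 fold changes of 0.39, -0.28 and 0.38, and Actl6a, of chromatin remodelling complexes, of 0.25.

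The list calls rested on few libraries. All 5 Merkel cell and 3 keratinocyte calls were lost without any one bulk skin library, while 5 of the 10 T cell and Langerhans cell calls held in each of those fits. Of the 6 genes named above as called (Tnni2, Postn, Tmsb4x, Tmsb10, Daam1 and Was), none stayed called when any of the 3 bulk skin libraries was left out, with adjusted p from 0.0583 (Tmsb10) to 0.270 (Tnni2). Without NCAM-enriched library 1, Tnni2, Tmsb4x and Daam1 were also no longer called (adjusted p = 0.0585, 0.115 and 0.0992). Over the 12 alternatives, the adjusted p ran from 4.21e-09 to 0.101 for Postn and from 0.00101 to 0.253 for Daam1.

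**Figure D5:**
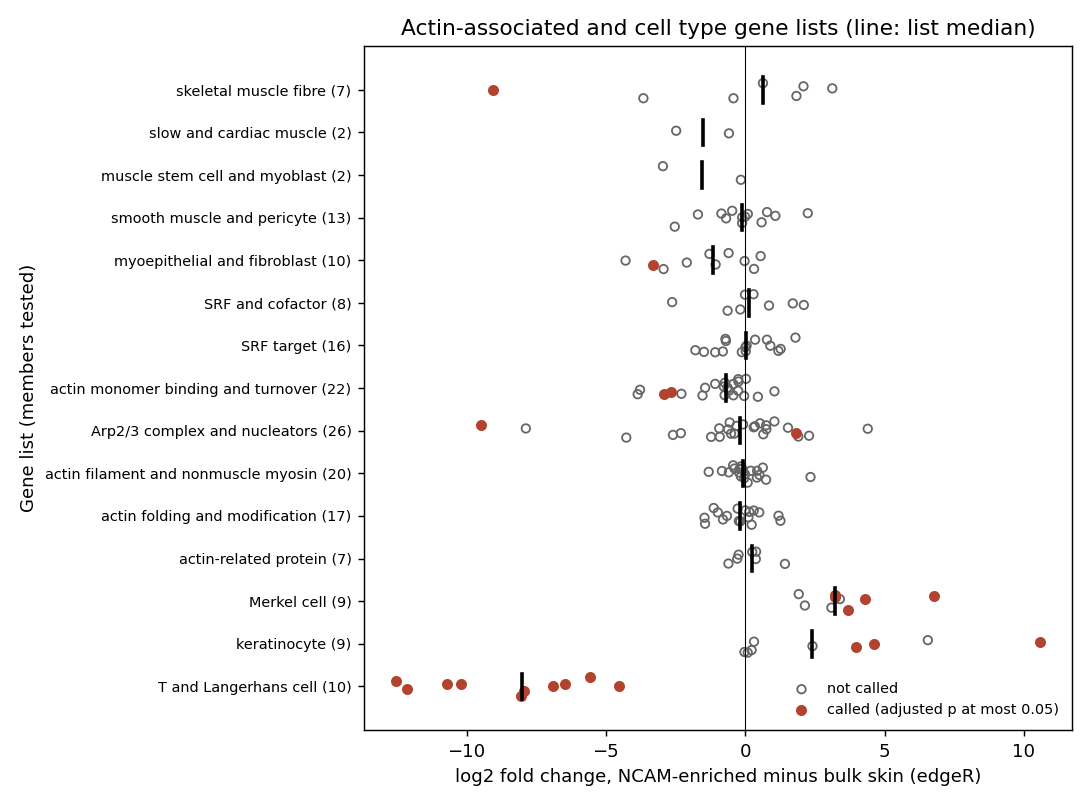
Fitted log2 fold change (x axis, NCAM-enriched minus bulk skin) of each tested gene in 15 gene lists (y axis, number tested in brackets), filled where edgeR called the gene and with the list median as a line. Height within a row is only for legibility. Merkel cell genes lie to the right and T and Langerhans cell genes to the left, while the lists of muscle and actin-handling genes have few calls and medians between -1.55 (muscle stem cell and myoblast) and 0.64 (skeletal muscle fibre). Fitted values of genes with a group at 0 depend on the prior count.

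The promoters of Acta1 and Actc1, the isoforms that had counts only in the NCAM-enriched libraries, are printed to show the element by which muscle actins are known. The windows are those of RefSeq (GRCm38.p6), from 250 bases before to 50 bases after the start site, and 4 of the 6 isoforms matched an entry (all but Actb and Actg2). Capitals mark the CArG box, which was searched on both strands in its strict form only. It began 73 bases before the start site in Acta1, 47 bases before it in Actc1 and 90 bases before it in Actg1, and was not found in the Acta2 window. Forms of the box with a mismatch were not searched, so nothing follows for Acta2.
Acta1, chr8:123894726-123895025: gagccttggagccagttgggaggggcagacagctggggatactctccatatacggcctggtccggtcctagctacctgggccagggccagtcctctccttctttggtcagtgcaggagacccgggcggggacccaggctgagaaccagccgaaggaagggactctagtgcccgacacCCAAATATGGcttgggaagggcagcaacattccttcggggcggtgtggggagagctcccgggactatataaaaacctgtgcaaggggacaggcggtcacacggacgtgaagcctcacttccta
Actc1, chr2:114052826-114053125: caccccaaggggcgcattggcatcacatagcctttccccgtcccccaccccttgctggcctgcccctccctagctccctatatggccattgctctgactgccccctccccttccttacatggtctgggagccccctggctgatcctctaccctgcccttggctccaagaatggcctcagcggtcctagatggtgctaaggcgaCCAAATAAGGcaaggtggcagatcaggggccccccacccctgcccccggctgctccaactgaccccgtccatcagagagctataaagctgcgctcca

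The strict CArG box was present in 535 of 32851 promoter windows of this length (1.63%). The letters TATAAA, searched on both strands, were in the forward direction in the windows of Acta1 and Actc1 and not in those of Acta2 and Actg1, and occurred in 4473 of all windows (13.6%). Actg1, whose window holds the box, had counts in both groups.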

How the data were processed

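The deposited values were raw read counts per gene, made by the authors. Per their methods, Smart-seq2 reads (50 bases, single end) were clipped, cleared of abundant sequences, aligned to GRCm38 with STAR and counted with featureCounts. For the annotation release, strand and multiple-match settings, the value was not given in the sources used here. The members and gene lists were chosen with earlier results of these data known. Groups came from the labels. Counts were compared with edgeR 4.0.16 in R 4.3.3 (filterByExpr, TMM factors, quasi-likelihood test, Benjamini-Hochberg over 13157 genes, with the calling threshold at an adjusted p of 0.05). SE is the absolute log2 fold change over the square root of F. Gene models came from GENCODE M21 (54495 of 54532 gene IDs matched), and CPM per kilobase used union exonic length. Named genes were the 6 isoforms, the 6 genes most like Acta1, the 4 most abundant and every called gene of the lists named for actin and muscle, and skeletal muscle genes with at least 10 counts in a library. Named outside this rule, after values were seen, were Actbl2, Gm12152, Ckm, Tnnc2, Mb, Myh1, Myh4, Myod1, Myog, Pax7, and the window-sharing rows. The Merkel, keratinocyte and T and Langerhans cell lists are given by sums or counts only. A gene that this rule names and a sequence are not reported here. Fits were tested on simulated data. Alternatives were DESeq2 1.42.0, limma-voom (limma 3.58.1), RLE and upper-quartile factors, all genes with at least 1 count, the replicate number as a block and leaving out each library. NCAM-enriched library 3 alone against bulk skin was added after seeing the data.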

Additional observations from a re-analysis of the deposited data

How the results depend on the processing

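Of all genes, 137 were called higher and 204 lower. DESeq2 called 661 and 928, limma-voom 351 and 849, all genes with at least 1 count 769 and 741, and NCAM-enriched library 3 alone 880 and 1646. Leaving out each library gave 0 to 1099 higher and 13 to 733 lower. The 0 was reached without bulk skin library 1 or 2, where edgeR found 2115 and 2237 genes at an unadjusted p under 0.05. Of the genes on the lists, 9 were called higher and 15 lower. DESeq2 called 20 and 26, all genes with at least 1 count 18 and 24, NCAM-enriched library 3 alone 20 and 46, and limma-voom 26 lower. Leaving out each library gave 0 to 15 higher and 5 to 26 lower. The replicate numbers did not pair the libraries (correlations of deviations 0.0226, 0.00025 and -0.00436), and a replicate block gave 50 higher and 92 lower. The log2 fold change of Actg2 turned to -2.18 by limma-voom, -0.022 with all genes of at least 1 count, -1.15 with the replicate block, -1.68 when NCAM-enriched library 1 was left out, -0.15 when bulk skin library 3 was, and -4.90 with NCAM-enriched library 3 alone; its range over the fits that left out a library was -1.68 to 0.63. That of Actg1 turned to -0.27 without NCAM-enriched library 3, the lowest of the fits that left out a library, of which the highest gave 0.76, and was 0.96 with NCAM-enriched library 3 alone. The cause was not tested. Actb was called in 0 of 12 alternatives, and the 3 library measures kept their direction in all that were run. Actg1 had 3 to 33 counts in a library.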
